A study of Mus musculus with 6 samples.

Results

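The genes described here are 6 leukaemia-linked members of the Hoxa cluster (Hoxa3, Hoxa5, Hoxa6, Hoxa7, Hoxa9 and Hoxa10) and 3 genes of the TALE homeodomain class (Meis1, Pbx2 and Pbx3), 9 of the 22098 gene symbols in the table. They were taken by symbol, and each had a row. The libraries came from pro-B acute lymphoblastic leukaemia cells of mouse strain C57BL/6. Whole bone marrow had been infected at day 0 with a retrovirus carrying BCR-ABL-p185-IRES-YFP, so the cultures of every group, wild type included, were transformed by the BCR-ABL kinase and marked by a YFP reporter. The 3 groups were wild type (wt), Ikaros ZnF1-/- and Ikaros ZnF4-/-, each mutant lacking the zinc finger it is named for in the DNA-binding domain of Ikaros, a lymphoid transcription factor. Each group had 1 library from day 21 and 1 from day 28 of culture (n = 2 per genotype). The marrow was not fractionated before infection according to the labels, and the sources used here give neither the age of the mice nor whether both days of a genotype came from 1 culture. Any property of a single culture therefore cannot be told apart from its genotype. The spread behind the p-values is how the change from day 21 to day 28 differed between genotypes. It may be only technical.

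Hox proteins are homeodomain transcription factors that set position in the embryo and regulate self-renewal in blood stem and progenitor cells. They bind DNA together with TALE partners: Pbx proteins dimerise with Hox proteins on DNA, and Meis proteins join the complex and help keep Pbx in the nucleus. Hoxa9 with Meis1 is the best known pair in leukaemia, above all where the histone methyltransferase gene Kmt2a (Mll) is rearranged, and Hoxa9 also acts in early lymphoid progenitors.

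Levels are RPKM, read counts scaled to transcript length and library size, as deposited with 1 decimal. A listed 0 therefore stands for less than 0.05 RPKM, and the read depth is unknown. Between 10401 and 11233 symbols reached 1 RPKM in a library. Differences are between log2(RPKM + 1) values, ± standard error, a scale that understates the change of low genes. They come from limma fitted to all 6 libraries with genotype and day as terms, and "called" means a Benjamini-Hochberg adjusted p below 0.05 over the 11379 genes that reached 1 RPKM in at least 2 libraries. Only Pbx2 and Pbx3 of the 9 genes met that filter. The other 7 are given as values with no test. As the label pro-B implies, B-lineage markers were high in every library: the 10 listed (Cd79a, Pax5, Ebf1, Igll1 and others) were all above 50 RPKM throughout, with sums of 2694.5 to 3122.4 RPKM.

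The promoter regions of 4 of the genes are printed to show the sequence upstream of members that were higher in 1 mutant (Hoxa9, Hoxa10 and Meis1) and of a member that was called in no comparison (Pbx2). Each run holds the 250 bases before a transcription start, 5′ to 3′ on the strand of the gene, from RefSeq on build GRCm38.p6. The expression values were made on another build, mm9. Capitals mark GGGAA, the core of the Ikaros motif, or its reverse complement TTCCC. Of the 9 genes 8 matched an entry and Pbx3 did not. For Hoxa10 the start of NM_001122950 according to GENCODE M21 was used, the transcript whose row stood for the gene. Which start these cells used was not tested.
Hoxa9, chr6:52227371-52227620, minus strand: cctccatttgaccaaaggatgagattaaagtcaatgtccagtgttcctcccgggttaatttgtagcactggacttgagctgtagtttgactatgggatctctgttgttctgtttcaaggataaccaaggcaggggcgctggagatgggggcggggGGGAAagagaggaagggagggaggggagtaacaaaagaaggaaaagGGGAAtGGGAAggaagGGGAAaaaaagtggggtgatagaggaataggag
Hoxa10, chr6:52240855-52241104, minus strand: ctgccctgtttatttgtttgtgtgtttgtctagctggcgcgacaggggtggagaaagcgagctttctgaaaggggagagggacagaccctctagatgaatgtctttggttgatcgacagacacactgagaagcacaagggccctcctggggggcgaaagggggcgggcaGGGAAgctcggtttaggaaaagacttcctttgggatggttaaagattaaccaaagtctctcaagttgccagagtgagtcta
Meis1, chr11:19018970-19019219, minus strand: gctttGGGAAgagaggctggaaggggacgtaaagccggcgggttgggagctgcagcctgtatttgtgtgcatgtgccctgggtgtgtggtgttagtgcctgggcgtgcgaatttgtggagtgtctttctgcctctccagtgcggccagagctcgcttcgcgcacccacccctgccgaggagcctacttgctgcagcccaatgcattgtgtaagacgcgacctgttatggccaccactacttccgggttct
Pbx2, chr17:34592009-34592258, plus strand: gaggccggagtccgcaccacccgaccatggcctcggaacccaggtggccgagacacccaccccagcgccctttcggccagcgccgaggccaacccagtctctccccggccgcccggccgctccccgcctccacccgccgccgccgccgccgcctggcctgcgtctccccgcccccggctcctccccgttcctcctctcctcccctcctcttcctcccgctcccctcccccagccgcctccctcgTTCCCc
Hoxa9 had 4 matches to GGGAA, while Hoxa10 (at this start; 0 at its other start), Meis1 and Pbx2 had 1 each, as did the single entries of Hoxa3, Hoxa5, Hoxa6 and Hoxa7. At least 1 match was present in 56.2% of the 32851 mouse promoters of this length and at least 4 in 1.38%. The longer form TGGGAA, which contains the core, was found in Hoxa6, Hoxa9 and Meis1 and in 21.6% of all promoters. The Pbx-Hox composite letters TGATNNAT were in none of the entries of these genes and in 7.68% of all, and the Meis core TGACAG was in that of Hoxa3 and in 15.9% of all. Both strands were searched. These matches describe letters only and show no binding.

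Hoxa transcripts were scarce in all 6 libraries, and the ZnF1 mutant held most of what there was. No Hoxa gene reached 1 RPKM anywhere. All 6 were listed between 0 and 0.1 RPKM in the wild type and ZnF4 libraries and between 0.2 and 0.7 RPKM in the ZnF1 libraries. For all 6, and for Meis1, the lower ZnF1 library lay above both wild type libraries, as it did for 40.7% of the 3852 genes that missed the filter but were above 0 in some library. It also lay above both ZnF4 libraries for these 7 genes, against 38.6% of the 3852, and above all 4 at once for 7 of 7, against 31.5%. The pattern was thus common among low genes. In none of the 7 did the ZnF4 libraries lie above (13.4% of the 3852) or below (10.5%) both wild type ones. The 6 genes lie side by side in 1 cluster and are not independent of each other.

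Hoxa10, a gene of the posterior part of the cluster that is active in myeloid progenitors, had the highest Hoxa level. It was listed at 0.1 and 0 RPKM in wt cells on day 21 and 28, at 0.7 and 0.6 RPKM in ZnF1-/- cells, and at 0.1 and 0 RPKM in ZnF4-/- cells. The mutants did not overlap, while wild type and ZnF4 had the same values. Its reads stood in the row of transcript NM_001122950, whereas the second row, NM_008263, had 0.1 RPKM in the ZnF1 library of day 28 and 0 in the others. In 62.9% of the 2163 genes with several rows and 1 of them at a mean of at least 1 RPKM, the second row held less than 10% of the first, so the split between rows cannot be read as a choice of promoter.

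Hoxa9, the member most closely tied to leukaemia, was listed at 0.1 and 0 RPKM in wt cells, at 0.4 and 0.4 RPKM in ZnF1-/- cells and at 0 in both ZnF4 libraries. Its level in ZnF1-/- cells was thus below that of Hoxa10. Hoxa7, its neighbour in the cluster, was the lowest, with 0.1 and 0 RPKM in wt cells, 0.2 RPKM in both ZnF1 libraries and 0 in both ZnF4 libraries. For Hoxa7 the gap between the wild type library of day 21 and the ZnF1 libraries was 0.1 RPKM, the size of 1 rounding step.

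Hoxa5, a gene of the central part of the cluster, was the second highest, at 0.1 and 0 RPKM in wt cells, 0.6 RPKM in both ZnF1 libraries and 0.1 RPKM in both ZnF4 libraries. Hoxa6 had 0.1 RPKM in both wild type libraries, 0.4 and 0.3 RPKM in ZnF1-/- cells, and 0.1 and 0 RPKM in ZnF4-/- cells. Its transcript row is only 701 bases long, against 1879 to 2548 bases for the other Hoxa members. Hoxa3, the most anterior member here, had 0.1 and 0 RPKM in wt cells, 0.4 RPKM in both ZnF1 libraries, and 0 and 0.1 RPKM in ZnF4-/- cells. In the ZnF1 libraries the order by mean level was Hoxa10 (0.65 RPKM), Hoxa5 (0.6), Hoxa9 and Hoxa3 (0.4 each), Hoxa6 (0.35) and Hoxa7 (0.2). Hoxa10 and Hoxa5, and likewise Hoxa9, Hoxa3 and Hoxa6, differed by no more than 1 rounding step. An antisense transcript that overlaps Hoxa5 and Hoxa6 in the RefSeq annotation, 2700086A05Rik (now Hoxaas3), was listed at 0.1 RPKM in both ZnF1 libraries and at 0 in the other 4. The library protocol in the labels names no step that marks strand, so reads of overlapping sense and antisense transcripts cannot be told apart.

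**Figure D1:**
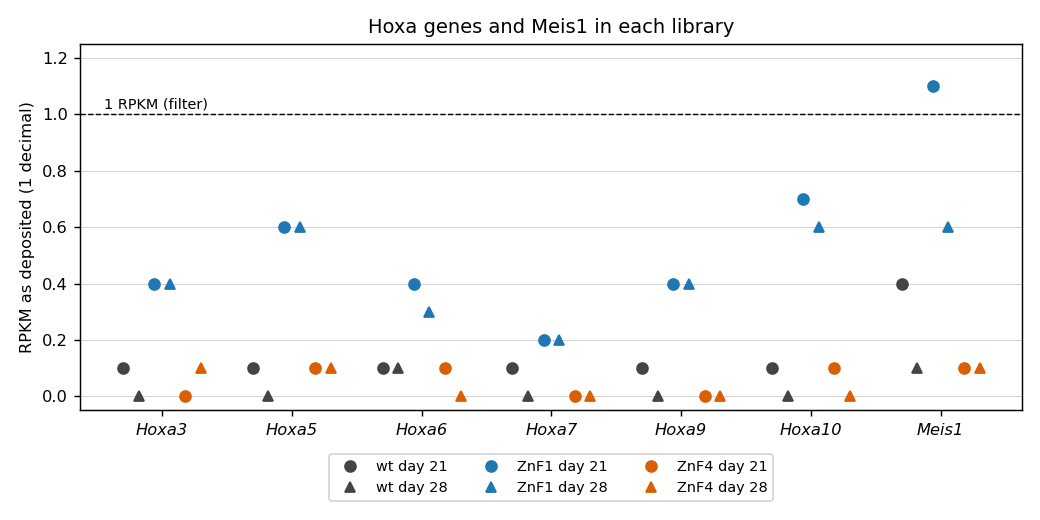
RPKM as deposited (vertical axis, 1 decimal) of 6 Hoxa genes and Meis1 in each library, with colour for genotype, circles for day 21 and triangles for day 28; the dashed line is the 1 RPKM level of the filter. The ZnF1 points of each gene lie above its wild type and ZnF4 points, and only the day 21 ZnF1 value of Meis1, at 1.1 RPKM, crosses the line.

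Other genes of the cluster were at or near 0. Hoxa2, Hoxa4 and Hoxa11 were listed at 0 in all wild type and ZnF4 libraries and at 0.1 to 0.2 RPKM in the ZnF1 libraries. Hoxa13 was listed at 0 in all 6. Summed over the 6 described genes, Hoxa RPKM was 0.6 and 0.1 in wild type, 2.7 and 2.5 in ZnF1-/- cells, and 0.3 and 0.2 in ZnF4-/- cells. A sum of rounded values carries the rounding error of each gene.

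Meis1, the Hox cofactor whose joint overexpression with Hoxa9 transforms marrow cells, was also low. It had 0.4 and 0.1 RPKM in wt cells, 1.1 and 0.6 RPKM in ZnF1-/- cells and 0.1 RPKM in both ZnF4 libraries. The ZnF1 values lay above the other 4, but the lower of them was only 0.2 RPKM above the wild type library of day 21. The ratio of ZnF1 to wild type was 2.75 at day 21 and 6 at day 28, and the spread between days within a genotype was wide (wild type 0.25 ± 0.212 RPKM, ZnF1 0.85 ± 0.354 RPKM, SD, n = 2). Meis1 missed the filter because 1 library reached 1 RPKM where 2 were required.

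When the filter was dropped, limma tested these 7 genes among 15231. Against wild type the ZnF1 mutant was then called higher for Hoxa3 (adjusted p = 0.0475), Hoxa5 (0.0126), Hoxa6 (0.0305), Hoxa9 (0.0204) and Hoxa10 (0.0106), but not for Hoxa7 (0.0701) or Meis1 (0.0597). These are 5 of 7 genes, and in that fit 20.6% of all genes were called higher. None of the 7 was called between the ZnF4 mutant and wild type (adjusted p from 0.433 to 1 in limma), where 7.47% of all genes were. All 7 were called lower in ZnF4-/- than in ZnF1-/- cells (adjusted p from 0.00776 to 0.0403), as were 22.1% of all genes without the filter and 23.2% with it. Such values rest on replicates that are often equal after rounding. The standard error of Hoxa10 in that fit was 0.02, smaller than the shift that rounding alone can make.

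Transcripts typical of macrophages and stroma were also highest in the ZnF1 libraries. The summed RPKM of 14 macrophage markers was 557 and 352.3 in wild type, 2218.6 and 2096.1 in ZnF1-/- cells, and 223.2 and 288.7 in ZnF4-/- cells, and all 14 were called higher in ZnF1-/- cells than in wild type. The sum of 14 stromal and endothelial markers was 64.4 and 51.6 RPKM in wt cells, 202.2 and 192.2 RPKM in ZnF1-/- cells, and 33.5 and 31.7 RPKM in ZnF4-/- cells. Of its 11 tested genes 10 were called higher in ZnF1-/- cells, and Lum was listed at 0 in all libraries. Pecam1, a large part of the wild type sum, had 25 and 26.1 RPKM in wt cells and 26.7 and 26.4 RPKM in ZnF1-/- cells. The endothelial gene Cdh5 was highest in ZnF4-/- cells, at 0.8 and 1.3 RPKM, against 0.4 and 0.5 RPKM in ZnF1-/- cells. Against wild type the ZnF4 mutant had 8 macrophage and 5 stromal or endothelial markers called lower and 0 higher. Over all tested genes 22.9% were called higher and 15.2% lower in ZnF1-/- cells. In ZnF4-/- cells these shares were 10.9% and 7.32%. Within wild type, Hoxa and Meis1 values and both marker sums were higher at day 21 than at day 28 (Hoxa6 was equal). For each other Hoxa gene that gap was 1 rounding step. The Hoxa sum and both marker sums were also higher at day 21 in ZnF1-/- cells. In ZnF4-/- cells the macrophage sum was lower at day 21, while the stromal sum and the Hoxa sum (0.3 and 0.2 RPKM) were higher. Granulocyte markers summed to at most 2.5 RPKM, with Elane, Mpo and Ltf at 0. The 7 T lineage markers summed to 36.8 and 47 RPKM in wt cells, 20.3 and 37.8 RPKM in ZnF1-/- cells and 17 and 16 RPKM in ZnF4-/- cells. Cd3e, Cd3g, Cd8a and Trat1 were listed at 0, and the sum was mostly Lck, a kinase gene, with 11.7 to 46.7 RPKM. Cd4 had 0.4 and 0.2 RPKM in wt cells, 8.5 and 7.2 RPKM in ZnF1-/- cells and 0 and 0.1 RPKM in ZnF4-/- cells. The 10 stem and early progenitor markers summed to 44.1 and 75.4 RPKM in wt cells, 59.1 and 78.8 RPKM in ZnF1-/- cells and 29.7 and 33.4 RPKM in ZnF4-/- cells. Mecom and Hlf were listed at 0 and Cd34 was at most 0.4 RPKM. Of the 4 tested, 2 were called higher and 0 lower in ZnF1-/- cells, and 1 higher and 2 lower in ZnF4-/- cells. Kit, a receptor gene of progenitors, had 0.1 and 0 RPKM in wt cells, 2.6 and 1.8 RPKM in ZnF1-/- cells and 17.4 and 12.5 RPKM in ZnF4-/- cells, so it was highest in the ZnF4 libraries, as Pbx3 was. Ly6a (2.5 to 34.6 RPKM) and Mycn (9.2 to 41.6 RPKM) were lowest there. Of the 9 megakaryocyte and erythroid markers only Pf4 was tested, with 25.3 and 30 RPKM in wt cells, 70.2 and 79.2 RPKM in ZnF1-/- cells and 13.6 and 20.7 RPKM in ZnF4-/- cells. The other 8 were at most 0.8 RPKM. Hoxa genes and Meis1 are known to be active in myeloid and mesenchymal cells as well as in progenitors. In these bulk samples more cells of a type and more RNA per cell cannot be told apart, and the part of other cells in the Hoxa and Meis1 values was not tested.

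**Figure D2:**
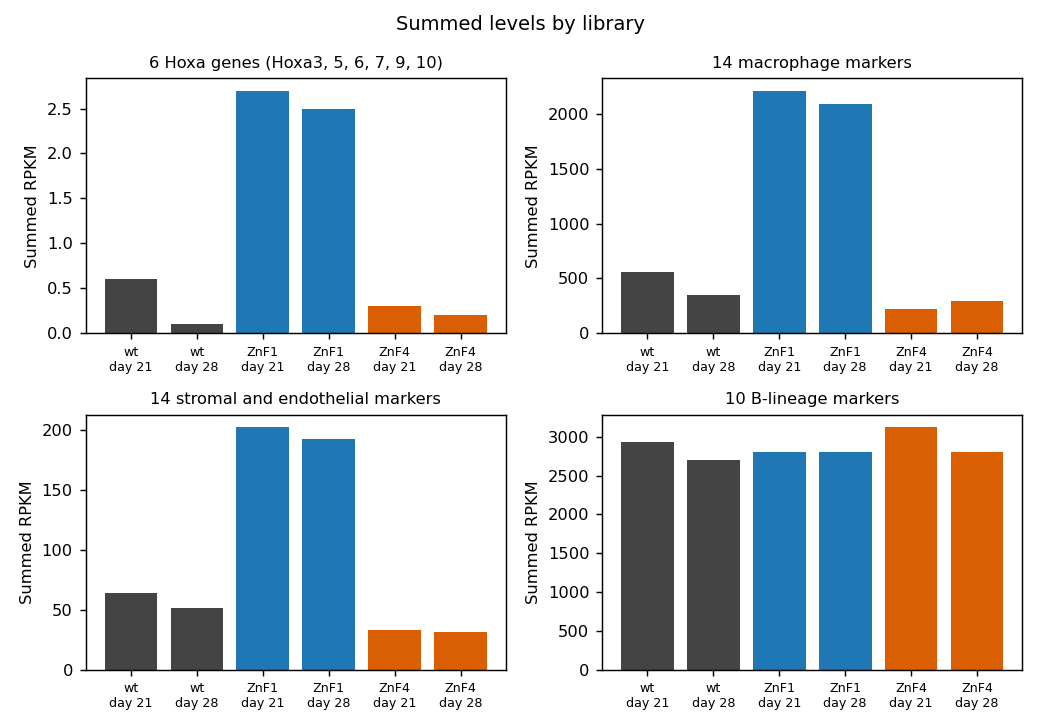
Summed RPKM (vertical axes, each from 0) by library for the 6 Hoxa genes, 14 macrophage markers, 14 stromal and endothelial markers and 10 B-lineage markers. The ZnF1 bars are the highest in the first 3 panels (2.7 and 2.5 RPKM for the Hoxa genes), while the B-lineage sums stay between 2694.5 and 3122.4 RPKM.

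Pbx3, a Hox dimer partner that is co-expressed with HOXA9 in human myeloid leukaemia, was higher in both mutants. It had 0.6 and 0.3 RPKM in wt cells on day 21 and 28, 3.9 and 2.6 RPKM in ZnF1-/- cells, and 4.7 RPKM in both ZnF4 libraries. The 3 genotypes did not overlap. The ratio to wild type was 6.5 and 8.67 for the ZnF1 mutant and 7.83 and 15.7 for the ZnF4 mutant at day 21 and day 28, with the larger values resting on a wild type level of 0.3 RPKM. In limma the difference was 1.54 ± 0.14 for the ZnF1 mutant (adjusted p = 0.00152) and 1.98 ± 0.14 for the ZnF4 mutant (adjusted p = 0.00142). The call held in all 13 alternative fits of each comparison (adjusted p from 0.00106 to 0.031 and from 0.00106 to 0.0421). Pbx3 was thus 1 of 2 members called in each comparison, where 38.1% (22.9% higher) and 18.2% (10.9% higher) of all tested genes were called. Its wild type values were under 1 RPKM, so it met the filter only through the mutants. With quantile scaling the higher calls were 41.3% of all calls in ZnF1-/- cells against wild type, compared with 60.1% as reported, and the median of all genes moved to -0.12. Pbx3 was higher by 1.15 or more in ZnF1-/- cells under every alternative, quantile scaling included.

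Between the mutants Pbx3 was higher in ZnF4-/- cells by 0.44 ± 0.14 (limma, adjusted p = 0.047), where 45.5% of genes were called, 22.3% of all genes higher. With quantile scaling the higher share of calls in this comparison went from 49.1% to 59.3%. The call of Pbx3 was lost in 10 of 13 alternatives (adjusted p up to 0.256), among them the fit without the replicate block on day (0.103) and those without any 1 library other than the ZnF4 library of day 21. The difference kept its direction in all 13, from 0.254 to 0.712, but whether it passed the threshold depended on the fit. The ZnF4 mutant had the highest Pbx3 values and the lowest macrophage and stromal sums. The ZnF1 mutant had Pbx3 above wild type and the highest of these sums. Which cells the Pbx3 transcripts came from was not tested.

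Pbx2, the broadly expressed family member, had the highest level of the 9 genes in every library. It had 17.4 and 16 RPKM in wt cells, 17.8 and 19.2 RPKM in ZnF1-/- cells, and 14.8 and 17.3 RPKM in ZnF4-/- cells, and the ranges of wild type and ZnF4 overlapped. The ZnF1 libraries lay just above the wild type ones. In limma the difference from wild type was 0.14 ± 0.10 in ZnF1-/- cells (adjusted p = 0.312, 95% interval -0.113 to 0.392) and -0.06 ± 0.10 in ZnF4-/- cells (adjusted p = 0.747, 95% interval -0.309 to 0.196). Between the mutants it was -0.20 ± 0.10 (adjusted p = 0.164, 95% interval -0.449 to 0.0559). None of these was called, here or in any of the 13 alternatives. In wild type Pbx2 was far above Pbx3. In ZnF4-/- cells Pbx3 had risen to 4.7 RPKM, still below Pbx2 at 16.05 ± 1.77 RPKM (SD, n = 2).

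**Figure D3:**
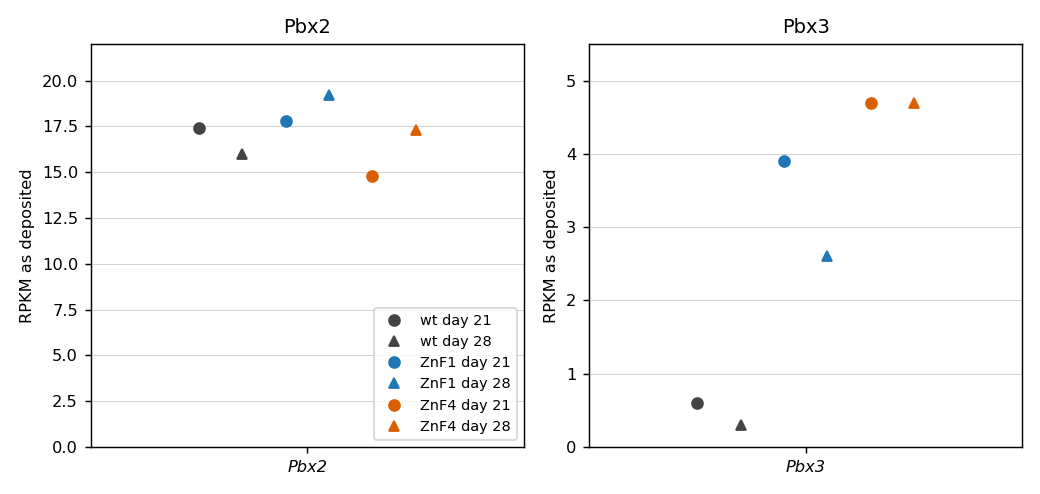
RPKM as deposited (vertical axes, each from 0) of Pbx2 and Pbx3 in each library, with colour for genotype, circles for day 21 and triangles for day 28. Pbx2 stays between 14.8 and 19.2 RPKM, while Pbx3 goes from 0.3 and 0.6 RPKM in wild type to 2.6 to 4.7 RPKM in the mutants.

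Neither tested member was called between day 28 and day 21 (Pbx2 0.07 ± 0.08, adjusted p = 0.74; Pbx3 -0.25 ± 0.11, adjusted p = 0.383). By limma 0 of 11379 genes were called for day (0%), with 1631 at an unadjusted p below 0.05. Both members had unadjusted p-values above that (0.445 and 0.072). The design has 1 library for each genotype and day, so a change of a genotype difference with time was not tested.

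Across the other TALE genes, the ones at high levels were Tgif1, a corepressor of transforming growth factor signalling, with 28.2 to 36.7 RPKM, and Pknox1 (Prep1), a Meis-related Pbx partner, with 18.1 to 29.3 RPKM. Of the 6 tested, 2 were called higher and 1 lower in ZnF1-/- cells, and by limma 0 in ZnF4-/- cells (2 at an unadjusted p below 0.05). Over all tested genes 22.9% were called higher and 15.2% lower in ZnF1-/- cells, and 18.2% were called in ZnF4-/- cells. The medians of the 6 were 0.27 and -0.19, against -0.02 and 0.02 over all genes tested. With quantile scaling 1 was called higher in the ZnF1 comparison, and with upper-quartile scaling 1 was called lower in the ZnF4 comparison. Meis3 rose from 0.5 and 0.3 RPKM in wild type to 2.5 RPKM in both ZnF1 libraries (1.33 ± 0.11, adjusted p = 0.0013) and had 0.3 and 0.2 RPKM in ZnF4-/- cells. Meis3 was below 1 RPKM in wt and ZnF4 and passed the filter only through the ZnF1 libraries. By limma Pknox1 was lower in ZnF1-/- cells, with 29.3 and 27.2 RPKM in wt and 18.2 and 18.1 RPKM in the mutant (-0.61 ± 0.07, adjusted p = 0.00267). Its ZnF4 values, 23.9 and 23.3 RPKM, were also below both wild type libraries but were not called (-0.25 ± 0.07 in limma, adjusted p = 0.0666). Meis2, at most 0.4 RPKM, and Pknox2, at most 0.1 RPKM, were not tested. Meis1 and Meis3 were thus highest in the ZnF1 libraries, as the Hoxa genes were, and Pbx3 in the ZnF4 libraries.

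**Figure D4:**
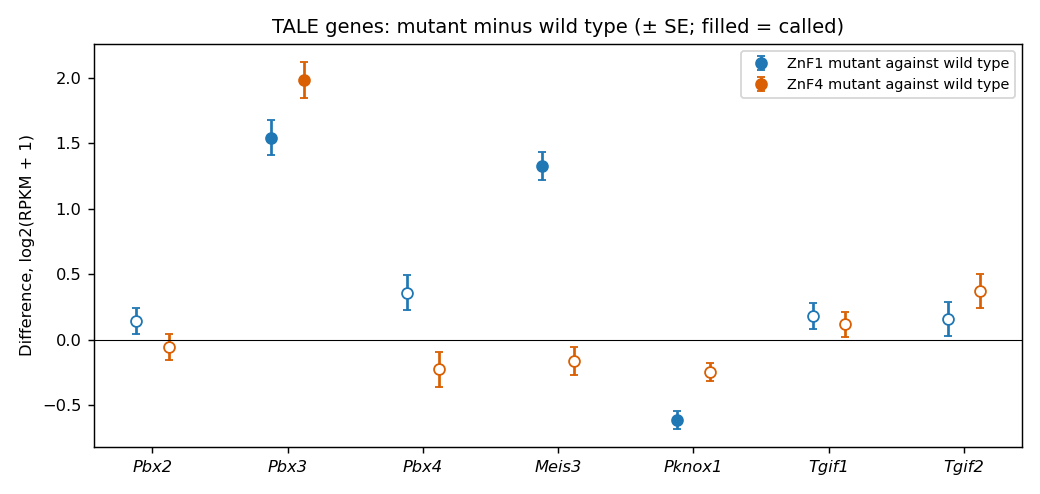
Difference from wild type on the log2(RPKM + 1) scale (vertical axis) with its standard error for 7 tested TALE genes, blue for the ZnF1 and orange for the ZnF4 mutant; filled points were called in limma. Pbx3 is the only gene of the 7 called in both mutants (1.54 and 1.98).

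The other Hox clusters held genes of both kinds. Of 28 genes 8 were tested, and 7 of these were below 1 RPKM in wt and passed the filter only through a mutant. Hoxc6 had 0.2 and 0.1 RPKM in wt cells, 1 RPKM in both ZnF1 libraries and 0.1 RPKM in both ZnF4 libraries, and Hoxc10 had 0.2 and 0.1, then 1.3 and 1.2, then 0.2 and 0.1 RPKM. Hoxb7 was listed at 0 in wild type and had 2.7 and 2.6 RPKM in ZnF1-/- and 18.6 and 11.4 RPKM in ZnF4-/- cells. The summed Hoxb RPKM was 1.9 and 2.3 in wild type, 7.8 and 8.8 in ZnF1-/- cells, and 36.1 and 28 in ZnF4-/- cells. The Hoxa and Hoxc sums were thus highest in ZnF1-/- cells and the Hoxb sum in ZnF4-/- cells.

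Genes that activate Hoxa transcription were expressed in all libraries while the Hoxa genes themselves were near 0. Of 18 listed, 15 were tested, and the caudal factors Cdx1, Cdx2 and Cdx4 were listed at 0. Kmt2a, under its older symbol Mll1, had 17.4 to 24.2 RPKM, its partner Men1 had 53.7 to 69.6 RPKM, and the histone methyltransferase gene Dot1l had 27.2 to 32.6 RPKM. In ZnF1-/- cells 6 of 15 were called lower and 0 higher (median -0.19; 8 at an unadjusted p below 0.05), where 15.2% of all genes were called lower. Leaving out wt day 21, wt day 28 or ZnF1 day 21 gave 0 calls, and leaving out ZnF1 day 28 gave 1. The 6 included the methyltransferase complex subunits Wdr5 (-0.38 ± 0.07, adjusted p = 0.0119) and Dpy30 (-0.35 ± 0.07, adjusted p = 0.0154). Both of these calls were lost without any 1 wild type or ZnF1 library (adjusted p up to 0.138 and 0.167), and that of Dpy30 also with quantile scaling. Psip1, which encodes a chromatin tether of the Mll complex, had 40.6 and 43.3 RPKM in wt and 27.5 and 28.9 RPKM in ZnF1-/- cells (-0.56 ± 0.12, adjusted p = 0.019), and its call was lost without the filter or any 1 of these 4 libraries (adjusted p up to 0.179). In ZnF4-/- cells limma called 0 of 15 (1 at an unadjusted p below 0.05), where 18.2% of all tested genes were called.

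Polycomb proteins keep Hox loci silent in cells that do not use them, and all 15 listed Polycomb genes were tested. In ZnF1-/- cells 5 of 15 were called lower and 0 higher (median -0.10), where 15.2% of all genes were lower. This was a count of 0 to 1 without any 1 wild type or ZnF1 library of 2 without the filter and of 3 without the replicate block. Among them was the methyltransferase gene Ezh2, with 199.8 and 198.5 RPKM in wt and 130.9 and 145.8 RPKM in the mutant (-0.52 ± 0.09, adjusted p = 0.00927). That call did not hold when ZnF1 day 21, wt day 21 or wt day 28 was left out (adjusted p up to 0.12). By limma Suz12 (-0.47 ± 0.11, adjusted p = 0.0279) and Cbx2 (-0.41 ± 0.08, adjusted p = 0.0133) were lower too. Neither call held without any 1 wild type or ZnF1 library. The call of Suz12 was also lost without the filter (limma, adjusted p = 0.0856). In ZnF4-/- cells 4 of 15 were called higher and 0 lower (median 0.09), where 10.9% of all genes were higher. This was a count of 0 without any 1 wild type or ZnF4 library. It was 1 without any 1 ZnF1 library, without the filter or with only the libraries compared. Pcgf2 was the one with the largest difference, with 4.6 and 5.7 RPKM in wt and 8.1 and 11.9 RPKM in the mutant (0.82 ± 0.14, adjusted p = 0.0168). Its call was lost without any 1 wild type or ZnF4 library (adjusted p up to 0.167) and without the filter. Cbx2 was also called higher in ZnF4-/- cells, at 19.4 and 21.5 RPKM (0.46 ± 0.08 in limma, adjusted p = 0.0171). That call was lost with only the libraries compared and when any 1 library was left out. Ezh2 had 168.6 and 158.9 RPKM in ZnF4-/- cells, below both wild type libraries, and was not called (-0.28 ± 0.09 in limma, adjusted p = 0.0909). Suz12, at 58.2 and 49.7 RPKM, was not called there either. Both comparisons share the wild type libraries.

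Of 17 genes reported downstream of Hoxa9 and Meis1 in leukaemia, 16 matched a symbol and 11 were tested. In ZnF1-/- cells, where Hoxa9 and Meis1 were highest, 2 of 11 were called higher and 0 lower, with a median of 0.04. Over all genes 22.9% were called higher and 15.2% lower, so the share of higher calls was no larger in the list. Lmo2, which encodes a bridging factor of haematopoietic transcription complexes, went from 2.7 and 2.3 RPKM in wild type to 13.6 and 14.3 RPKM (2.10 ± 0.10, adjusted p = 0.001). Id2, an inhibitor of E proteins, went from 5.4 and 5.1 to 15.2 and 23.6 RPKM (1.68 ± 0.17, adjusted p = 0.00211). In ZnF4-/- cells 4 were called higher and 2 lower, with a median of -0.37 (10.9% of all genes were called higher and 7.32% lower). With 1 wild type or ZnF4 library left out 0 to 2 were higher and 0 to 1 lower. Without the replicate block 2 were higher and 2 lower, and without the filter the median was 0.09. Lmo2 was called higher in ZnF4-/- cells too, at 4.9 and 4.5 RPKM (0.71 ± 0.10 in limma, adjusted p = 0.00971). That call was lost without any 1 wild type or ZnF4 library. Id2 had 2.9 and 4.3 RPKM in ZnF4-/- cells and was not called against wild type. The kinase gene Pim1 fell from 116.9 and 154.9 RPKM in wild type to 59.5 and 70.1 RPKM (-1.05 ± 0.09, adjusted p = 0.00263), a call lost without wt day 28 or any 1 ZnF4 library (adjusted p up to 0.0609). Bcl2, which encodes an inhibitor of apoptosis, had 4.4 and 4.3 RPKM in wt and 2 and 2.1 RPKM in ZnF4-/- cells (-0.81 ± 0.12, adjusted p = 0.012). Its call was lost without any 1 of these 4 libraries and without the filter (limma, adjusted p = 0.0656 without the filter). Igf1r, a growth factor receptor gene, rose from 2.1 and 0.4 to 9 and 7.2 RPKM (2.12 ± 0.21, adjusted p = 0.0036), a call lost without the ZnF4 library of day 28 (0.0556). Flt3, a receptor gene downstream of Meis1, was at most 0.4 RPKM and Hlf was listed at 0, and neither was tested.

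By the rule for likeness, the genes outside the Hox and TALE lists whose log2 values over the 6 libraries followed Pbx3 most closely were Zfp318 (Pearson r = 0.998) and Mpzl1 (0.996). Zfp318 had 0.9 and 0.7 RPKM in wt cells, 3.8 and 3 RPKM in ZnF1-/- cells and 4.6 and 4.9 RPKM in ZnF4-/- cells. For Pbx2 they were 1110008P14Rik (0.935) and Cav1 (0.924). Among 2561 candidate genes 192 exceeded 0.9 with Pbx3 and 3 with Pbx2. With 6 points that fall into 3 genotypes these coefficients describe a shared order of groups and nothing more.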

How the data were processed

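Poly(A) RNA of 6 libraries was measured by RNA-seq, 1 library for each of 3 genotypes at day 21 and day 28. The authors deposited 1 table of RPKM values per RefSeq transcript, rounded to 1 decimal, with 26531 rows that name a gene. The submitters' processing notes list TopHat, bedtools and build mm9. Software versions, the transcript annotation and read totals are not given in the sources used here. No whole-read steps could be recovered from values with 1 decimal, so depth is unknown.

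The row with the highest mean stood for each of 22098 symbols. The 1 row lacking a name was dropped. On the log2(RPKM + 1) scale (pseudocount 1), genes that reached 1 RPKM in 2 or more libraries were tested with limma 3.58.1 in R 4.3.3 (empirical Bayes with a mean-variance trend; 2 residual and 3.22 prior degrees of freedom). Genotype and day were terms, p-values were adjusted by Benjamini-Hochberg, and 0.05 was the threshold. Day was kept as the replicate block: the labels give it, and the changes from day 21 to day 28 correlated between genotypes across genes (0.433, 0.249 and 0.226). Any 2 libraries had the same RPKM for at most 5.61% of tested genes. The fit was tested on simulated data.

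The members, lists and rules were chosen with earlier results of these data known. Named genes are all members and, of each other list, genes among the up to 4 called with the smallest p per comparison. Levels quoted for Tgif1, Mll1, Men1, Dot1l, Meis2, Pknox2, Flt3 and Hlf, and for the Cdx and other Hoxa genes, were chosen after their values were seen. Some listed genes are counted in their lists but not reported here by name. Alternatives were another pseudocount, filter, scaling, row summary, sample set and block, and leaving out each library.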

Additional observations from a re-analysis of the deposited data

Results flagged for a closer look

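Pbx2 moved in opposite directions on the 2 days and in different genotypes. The ZnF4 mutant was lower than wild type at day 21 (-0.22 on the log2(RPKM + 1) scale) and higher at day 28 (0.106). From day 21 to day 28 Pbx2 changed by -0.114 in wild type, by 0.104 in the ZnF1 mutant and by 0.212 in the ZnF4 mutant. With 1 library per genotype and day these differences between days and genotypes were not tested.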

How the results depend on the processing

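Pbx3 was called higher in both mutants than in wild type under all 13 alternatives, and Pbx2 in none. The fits without the replicate block changed 1 call of these members, that of Pbx3 between the mutants (0.441, adjusted p = 0.103, 0 members called). The number of members called between the mutants was also 0 with a pseudocount of 0.1, with upper-quartile scaling and with only the libraries compared. Without the filter all 9 members were tested. Between the mutants 7 were then called, the 6 Hoxa genes and Meis1, all lower in ZnF4-/- cells, as were 22.1% of all genes. Pbx3 was not called there (limma, adjusted p = 0.103). In the ZnF1 mutant against wild type 6 members were called without the filter, all higher, as were 20.6% of all genes. Leaving out 1 library gave 0 to 1 members called between the mutants, with 1 only without the ZnF4 library of day 21.

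Over all genes, the ZnF4 mutant against wild type had 2076 calls, 1137 without the filter, 1231 with only the libraries compared, and 346 to 1230 with 1 library left out. The lowest counts were 455 (wt day 21 left out), 346 (wt day 28), 634 (ZnF4 day 21) and 392 (ZnF4 day 28). The ZnF1 mutant against wild type had 4336 calls, and 1398 to 4475 with 1 library left out: 1659 and 1398 without the wild type libraries, and 1670 and 1770 without the ZnF1 libraries. Between the mutants there were 5177 calls, and 2526 to 3896 with 1 library left out, with 2526 and 2632 without the ZnF1 libraries. Fewer libraries leave 1 residual degree of freedom, and a genotype with 1 library is assumed to vary like the others. For the Hoxa genes and Meis1 the rounding to 1 decimal limits what can be shown.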
